A study of Mus musculus with 16 samples.

Results

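The genotype by oxazolone interaction is, for each gene, the oxazolone effect in the esophagus of Il13ra1-deficient (KO) mice minus the oxazolone effect in wild-type (WT) mice. It was computed on log2(value + 1) over all 16 libraries of the series, for every gene whose normalized count reached at least 5 in at least 4 libraries. By that rule 16748 of 41411 genes entered. The rule compares no groups, but the 4 libraries of 1 group are enough to meet it. A gene counted in 1 group only can therefore enter through the group where it is high. A negative interaction means that the oxazolone effect was lower in KO than in WT, and a positive one that it was higher. The study measured esophageal RNA of C57BL/6 mice by CEL-Seq, which reads tags from the 3' ends of transcripts, in a mouse model of eosinophilic esophagitis. The hapten is oxazolone (OXA), a contact allergen, and controls were given vehicle. The 4 groups, each of 4 libraries, were WT with vehicle, WT with OXA, Il13ra1 KO with vehicle and Il13ra1 KO with OXA. The labels gave a single strain, C57BL/6, for every group. Age, sex, the duration of treatment, the deleted part of Il13ra1 and how the KO line was bred are not stated in the labels.

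Il13ra1 is the partner of Il4ra in the type II receptor, through which both IL-13 and IL-4 act on cells outside the blood lineages, with Stat6 as the main messenger. Lymphocytes mainly use the type I receptor, Il4ra with the common gamma chain Il2rg, which binds IL-4 and not IL-13. In the esophageal lining, IL-13 is known to disturb terminal differentiation, the programme by which stratified squamous cells build the cornified envelope, and basal cell expansion is a hallmark of eosinophilic esophagitis.

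The reads behind the deposited values numbered 5.61 to 9.55 M in the vehicle libraries of WT, 20.2 to 27.3 M in its OXA libraries, 7.91 to 16.5 M in the vehicle libraries of KO and 8.82 to 15.2 M in its OXA libraries. The WT OXA libraries were therefore deeper than all others, and every result in which that group stands apart shares this difference in depth. A fit to libraries thinned to the depth of the shallowest called 1103 genes lower and 1556 higher, among them 1010 of the 1284 and 1498 of the 1698 genes called at full depth. Mitochondrial ribosomal RNA took 1.34% of reads on average in WT vehicle, 0.453% under OXA, 1.14% in KO vehicle and 0.776% under OXA. Summed skeletal muscle genes stood at 283150 to 535086 in WT vehicle, 187796 to 366610 under OXA, 369444 to 539951 in KO vehicle and 250294 to 415899 under OXA. Every WT OXA library was thus below every KO vehicle library in this sum, while the other pairs of groups overlapped. The part of depth, mitochondrial RNA and muscle content in the interaction was not tested beyond the thinned reads. Nothing in the labels says that the libraries came from separate animals, so p-values measure the spread between these libraries.

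The oxazolone response differed between the genotypes for 2982 genes (17.8% of those tested) at a Benjamini-Hochberg adjusted p under 0.05 with limma. In 1284 genes (7.67%) the OXA effect was lower in KO, and in 1698 (10.1%) it was higher. Across the lower genes the median OXA effect was 1.09 log2 units in WT and -0.20 in KO, and across the higher genes it was -1.05 in WT and 0.23 in KO. These genes were selected on the difference of the effects, so their medians are a description. Group means placed WT OXA highest in 1228 of the lower genes (95.6%) and lowest in 1631 of the higher genes (96.1%). The pattern was thus of a WT OXA group that stood apart from the other 3 groups, which were not always alike. Among the lower genes WT vehicle was the lowest group in 672 (52.3%) and KO OXA in 489 (38.1%). Among the higher genes KO OXA was the highest group in 973 (57.3%) and WT vehicle in 568 (33.5%). An interaction of at least 2 log2 units was called in 302 lower and 328 higher genes, and one of at least 4 units in 64 and 62. The median interaction of all tested genes was -0.10. With every library scaled to equal totals this median shifted by -0.42, and 3459 lower and 883 higher genes were called (20.3% higher, against 56.9% with the authors' scaling). All 1284 lower genes and 883 of the 1698 higher genes kept their call under equal totals, and 673 lower and 828 higher genes kept it under every alternative that was run.

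**Figure D1:**
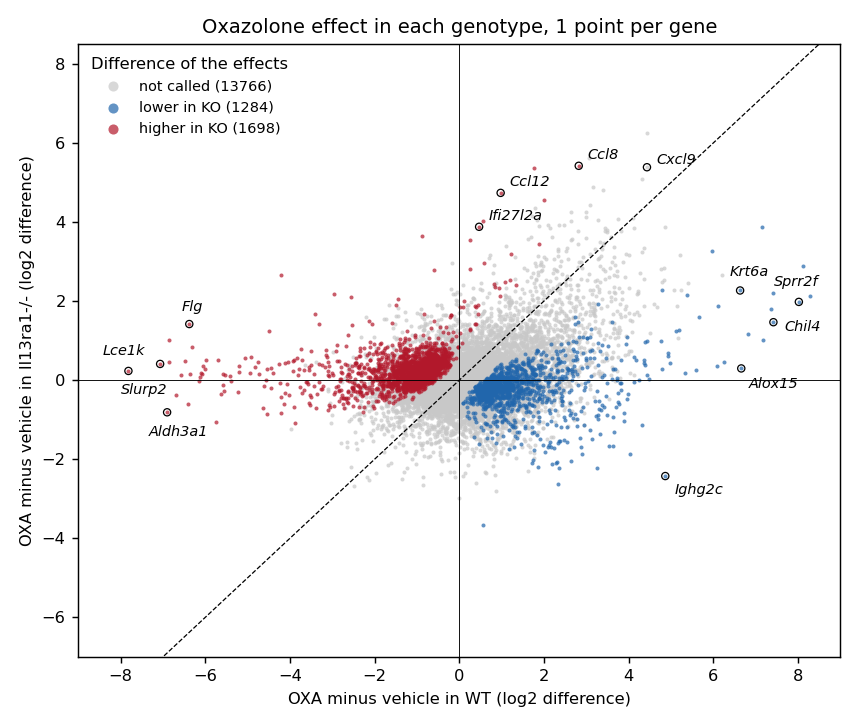
OXA minus vehicle in WT (horizontal axis, log2 difference) against OXA minus vehicle in Il13ra1-/- (vertical axis, log2 difference), 1 point for each of the 16748 tested genes, with the 1284 genes called lower in KO and the 1698 called higher in KO in colour and a dashed line where both effects are equal. The coloured genes spread along the WT axis, and their medians lie nearer to the zero line on the KO axis. Median effects were 1.09 in WT and -0.20 in KO for the lower genes, and -1.05 and 0.23 for the higher ones. Some coloured genes had large KO effects, such as Ccl8 (5.42) and Ccl12 (4.73). Colour follows the difference of the effects, so the medians are a description.

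Taken over all genes that responded in WT, the median KO effect was small, but it was larger among the genes that rose most. The OXA effect passed the test in 5692 genes in WT (34%) and in 318 genes in KO (1.9%). The 3019 genes that rose in WT had a median effect of 1.16 in WT and 0.12 in KO, and the 2673 that fell had medians of -0.96 and -0.01. Among the 781 that rose by at least 2 log2 units in WT the medians were 2.74 and 0.77, and among the 324 that fell by at least 2 they were -2.63 and -0.06. For the 81 that rose by at least 4 they were 4.67 and 1.66, with KO quartiles of 0.58 and 2.32. For the 57 that fell by at least 4 they were -5.23 and 0.15. Selection on the WT effect makes the WT medians large, so these values are a description. The precision for single genes was moderate: the 95% interval of the interaction lay within 1 log2 unit of 0 for 3950 genes (23.6%), and 2689 genes with an interaction of at least 1 in size did not pass.

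Il13ra1 itself, the targeted gene, stood at 207, 226, 197 and 134 in the WT vehicle libraries, 584, 673, 752 and 874 under OXA, 31.2, 64.7, 48.7 and 55.8 in KO vehicle and 44, 174, 68.1 and 110 under OXA. KO libraries were lower than WT under the same treatment, and transcript tags were still counted in all 8 of them. A 3' tag outside the deleted part would be counted in KO tissue, so these values alone do not check the knockout. Its interaction was -1.09 ± 0.46 (SE; adjusted p = 0.107) and did not pass, while with equal library totals it was -1.53 (adjusted p = 0.0344) and without the second KO OXA library -1.42 (adjusted p = 0.0199). Il4ra, the signalling chain shared by both receptor types, stood at 85.4, 38.6, 74.8 and 80.2 in WT vehicle, 323, 357, 375 and 325 under OXA, 77, 75.9, 51.7 and 55.8 in KO vehicle and 95.3, 79.8, 85.4 and 84.3 under OXA. All WT OXA libraries lay above all others, the OXA effect was 2.35 in WT and 0.42 in KO, and the interaction was -1.93 ± 0.34 (adjusted p = 0.000676). Socs1, a feedback inhibitor of cytokine receptors, was 102, 97.3, 56.5 and 156 in WT vehicle, 703, 658, 711 and 712 under OXA, 86.8, 124, 135 and 113 in KO vehicle and 369, 239, 115 and 330 under OXA. Its KO OXA values sat between the vehicle and the WT OXA values, with 1 of them inside the vehicle range, and its interaction was -1.75 (adjusted p = 0.00867). The messenger Stat6 went the other way: 1177, 1054, 1244 and 1139 in WT vehicle, 784, 763, 809 and 913 under OXA, 944, 797, 985 and 1098 in KO vehicle and 1608, 1209, 1156 and 1057 under OXA gave an interaction of 0.88 (adjusted p = 0.00531), which equal library totals reduced to 0.44 (adjusted p = 0.0697). The decoy receptor Il13ra2 was at 0 in 7 of 8 vehicle libraries and at 8.71 to 25.9 in WT OXA, with 0, 0, 0 and 6.3 in KO OXA, and its interaction missed the threshold (adjusted p = 0.0847). Of 15 tested genes of IL-4 and IL-13 reception and signalling, 3 were called lower, among them the kinase Tyk2 (-1.06, adjusted p = 0.0254), and 1 higher, or 6 and none under equal library totals, and the list's median was -0.44 beside -0.10 for all genes.

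Among genes known to be induced by IL-4 or IL-13, some rose in WT and did not pass in KO. Some rose in both genotypes, and others differed in the opposite direction. Chil4, a chitinase-like protein of allergic mucosa, was 2969, 1187, 210 and 1221 in WT vehicle, 83678, 225806, 184630 and 221850 under OXA, 616, 481, 158 and 489 in KO vehicle and 1683, 4308, 658 and 279 under OXA. The lowest WT OXA library exceeded every other library by a wide margin, the KO OXA values overlapped both vehicle groups, and the OXA effect was 7.42 ± 0.72 in WT and 1.46 in KO (adjusted p = 0.371), with an interaction of -5.95 ± 1.02 (adjusted p = 0.000562). Alox15, the lipoxygenase that oxidizes arachidonic and linoleic acid, was 19.3, 58.7, 0 and 22.3 in WT vehicle, 633, 2304, 2466 and 812 under OXA, 7.8, 43.1, 0.76 and 3.28 in KO vehicle and 14.7, 5.95, 13.6 and 3.15 under OXA. No KO OXA library rose above the vehicle range, and the interaction was -6.36 ± 1.42 (adjusted p = 0.00449). Of the 22 tested genes on the IL-4 and IL-13 list, 5 were called lower and 4 higher, with a median interaction of 0.07. Timp1, an inhibitor of matrix metalloproteinases, was among the lower ones (-2.89), as was Tnfaip6 (-1.50). The higher ones were the macrophage lectin Mgl2 (1.47), the serpins Serpinb3a (1.74) and Serpinb3b (2.09) and the chemokine Ccl8 (2.60). The eotaxin Ccl11 (-0.75, adjusted p = 0.0784), the matrix protein Postn (-0.97, adjusted p = 0.173) and Retnla (0.41, adjusted p = 0.458) did not pass, so for them no difference in response was detected. On this list 12 genes rose in WT and 6 in KO. Retnla rose by 1.35 in WT and 1.76 in KO, Mrc1 by 1.08 and 1.14, Chil3 by 4.85 and 3.87 and Ccl22 by 3.08 and 3.20. These effects passed in both genotypes, and the interactions of these genes did not pass.

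Several low genes were seen almost only in WT OXA. Among them Mrgprg met the expression minimum through its WT OXA libraries alone, so its high level there was a condition of its entry. Il19, an IL-20 family cytokine, was 0, 0, 5.47 and 0 in WT vehicle, 368, 179, 335 and 212 in WT OXA, 0 in all 4 KO vehicle libraries and 12.8, 1.19, 0 and 3.94 in KO OXA. WT OXA was far above the rest and the interaction passed with limma (-5.56, adjusted p = 0.00159), but on the recovered reads edgeR gave an adjusted p of 0.886 and DESeq2 0.286. Gsdmc2, a gasdermin, was 11, 6.18, 0 and 0 in WT vehicle, 72.6, 272, 448 and 195 under OXA, 1.95, 3.45, 0.76 and 3.28 in KO vehicle and 3.67, 2.38, 2.48 and 3.94 under OXA, an interaction of -5.71 (adjusted p = 0.00111) with no overlap between WT OXA and any other group. Mrgprg, an orphan Mas-related receptor, was at 0 in all 8 vehicle libraries and, in KO OXA, at 0, 0, 2.48 and 0, against 124, 85.2, 135 and 22.1 in WT OXA. Those WT OXA values came from 894 reads, which against a floor of 3 reads over the WT vehicle group makes WT OXA at least 97.7-fold higher relative to library totals. Its fitted interaction (-5.81, adjusted p = 0.00068) depends on the pseudocount and was not called by edgeR (adjusted p = 1) or DESeq2 (adjusted p = 0.0778). Il20ra, a receptor chain for IL-19, IL-20 and IL-24, was also called lower (-4.46), and the IL-1 decoy receptor Il1r2 was called higher. Il1r2 stood at 654 to 1123 in WT vehicle, 51.5 to 79.9 under OXA, 1011 to 1224 in KO vehicle and 1049 to 2567 under OXA, an interaction of 4.24 with only WT OXA apart. The epithelial cytokine Il18 was higher too (2.99).

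Most Sprr genes and several stress keratins of the squamous epithelium rose in WT and less in KO. Among 11 tested Sprr genes, which encode small proline-rich proteins crosslinked into the cornified envelope, 9 were called lower and none higher, with median OXA effects of 5.33 in WT and 1.86 in KO and a median interaction of -3.28. Sprr2f was 12.4, 12.4, 0 and 69.1 in WT vehicle, 3308, 2039, 3530 and 2371 under OXA, 22.4, 12.1, 13.7 and 9.85 in KO vehicle and 64.2, 113, 55.7 and 26.8 under OXA. Its KO OXA values were above the KO vehicle values in every library but the KO effect of 1.98 did not pass (adjusted p = 0.248), and the interaction was -6.04 ± 1.11 (adjusted p = 0.000968). Sprr1a, expressed strongly in all groups, was 10413, 6863, 8007 and 6135 in WT vehicle, 27567, 27423, 27061 and 30885 under OXA, 11578, 10720, 11879 and 9648 in KO vehicle and 12324, 8350, 12299 and 11147 under OXA. Only WT OXA stood apart, and the interaction was -1.88 (adjusted p = 7.36e-05). Interactions of Sprr2a3 (-5.16) and Sprr2h (-5.20) passed, and Sprr2d and Sprr2h also rose in KO, by 3.87 and 2.21. Sprr2b (-1.63) and Sprr3 (0.73) did not pass for the interaction. Sprr2e had the most negative value of the family (-6.15), which edgeR (adjusted p = 0.236) and DESeq2 (adjusted p = 0.175) did not call. Sprr2, Lce, Krt6, immunoglobulin and Ear genes have near-identical copies whose reads the authors' counting could split, so values of single members are uncertain.

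Krt6a, which encodes a keratin made after wounding, was 1356, 436, 553 and 1720 in WT vehicle, 72498, 87066, 74305 and 115909 under OXA, 2428, 920, 1045 and 1006 in KO vehicle and 10398, 11746, 2768 and 3723 under OXA. The response was reduced rather than absent, since every KO OXA library lay above every vehicle library: the OXA effect was 6.63 in WT and 2.27 in KO (adjusted p = 0.00864), with an interaction of -4.36 ± 0.64 (adjusted p = 0.000138). Krt16 (-5.24), Krt17 (-3.92) and Krt6b (-2.70), other keratins of the stress response, were called lower, and Krt6b rose in KO by 3.27. Over the 14 tested stress keratins and alarmins these 4 keratins were called lower, 2 genes were called higher and 8 were not called. The list's median OXA effects were 2.62 in WT and 1.53 in KO. The defensin Defb4 was called higher (2.85), and S100a8 (-0.98), S100a9 (-0.90), Krt75 (-2.00) and Defb14 (-0.83) did not pass for the interaction. Elf3, an epithelial transcription factor, was 417, 420, 566 and 468 in WT vehicle, 2790, 2582, 3185 and 2048 under OXA, 374, 304, 304 and 353 in KO vehicle and 429, 342, 230 and 479 under OXA. Its KO values did not separate by treatment (effect 0.10), and the interaction was -2.39 (adjusted p = 9.18e-06). Of the basal keratins, Krt14 was 2551 to 3766 in WT vehicle, 10526 to 15787 under OXA, 2011 to 2481 in KO vehicle and 5701, 3014, 2800 and 2847 under OXA, with an interaction of -1.41 (adjusted p = 0.00234). Krt15 moved the opposite way to Krt14, at 14503 to 27294, 2295 to 5197, 18368 to 22182 and 17089 to 39263 in the same order of groups, with an interaction of 2.73. Krt5, the partner of Krt14, showed no detectable difference in response (0.27, adjusted p = 0.595). Krt13, the abundant suprabasal keratin of esophagus, ranged from 116771 to 511527 over the 16 libraries, and its interaction of 1.38 did not pass with limma (adjusted p = 0.118) but did with edgeR (adjusted p = 0.00802) and DESeq2 (adjusted p = 0.000102). Krt78, another suprabasal keratin, was called higher (2.48).

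**Figure D2:**
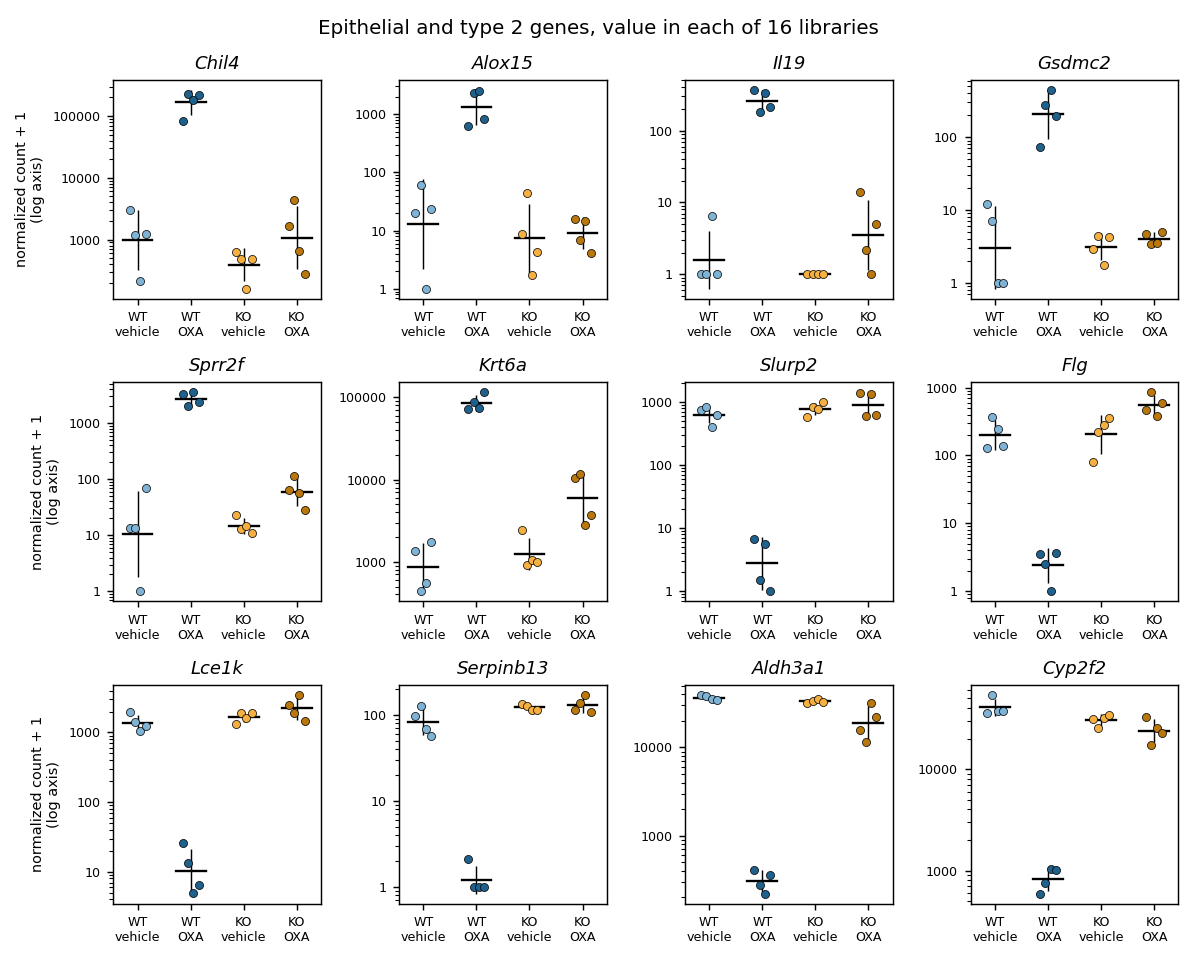
Normalized count + 1 (log axis) of 12 genes in each of the 16 libraries, with 1 point per library, a horizontal bar at the mean of the log values and a vertical line for 1 SD on the log scale, by group. In Chil4, Alox15, Il19, Gsdmc2, Sprr2f and Krt6a the WT OXA libraries lie above all others, and in Slurp2, Flg, Lce1k, Serpinb13, Aldh3a1 and Cyp2f2 they lie below all others, while KO OXA was raised in Krt6a (effect 2.27).

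Cornification genes behaved in the reverse manner, and the loss seen in WT was not seen in KO. All 20 tested Lce genes, the late cornified envelope proteins of the outermost squamous layers, were called higher, with median OXA effects of -5.14 in WT and 0.43 in KO and a median interaction of 5.47. Lce1k was 1937, 1405, 1040 and 1232 in WT vehicle, 24.7, 12.3, 3.92 and 5.4 under OXA, 1305, 1904, 1624 and 1927 in KO vehicle and 2479, 1902, 3496 and 1460 under OXA. WT OXA lay far below all other libraries and the KO OXA libraries overlapped the vehicle range, with an interaction of 7.48 ± 0.53 (adjusted p = 1.52e-08). Flg, the source of filaggrin, was 127, 369, 246 and 136 in WT vehicle, 2.54, 1.54, 0 and 2.7 under OXA, 79, 224, 278 and 353 in KO vehicle and 458, 853, 385 and 596 under OXA. Every KO OXA library was above every vehicle library, but the KO effect of 1.42 did not pass (adjusted p = 0.156), and the interaction was 7.80 ± 0.66 (adjusted p = 1.54e-07). Of 16 tested cornified envelope and fused S100 genes 11 were called higher and none lower, including hornerin Hrnr (5.38), repetin Rptn (2.89), loricrin Lor (2.14) and periplakin Ppl (2.13). The smallest Lce value was that of Lce3d (1.41).

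The Sprr and Lce genes lie in 1 cluster on chromosome 3, the epidermal differentiation complex, and the direction of the interaction changed from block to block. Between chr3:92080271-93449077 (GRCm38, 1.37 Mb) 49 genes were tested, of which 10 were called lower, 30 higher and 9 not called. The called Sprr genes lay within the Sprr block at chr3:92285417-92485895 (0.2 Mb), and the Lce genes within chr3:92646535-93019060 (0.373 Mb).

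**Figure D3:**
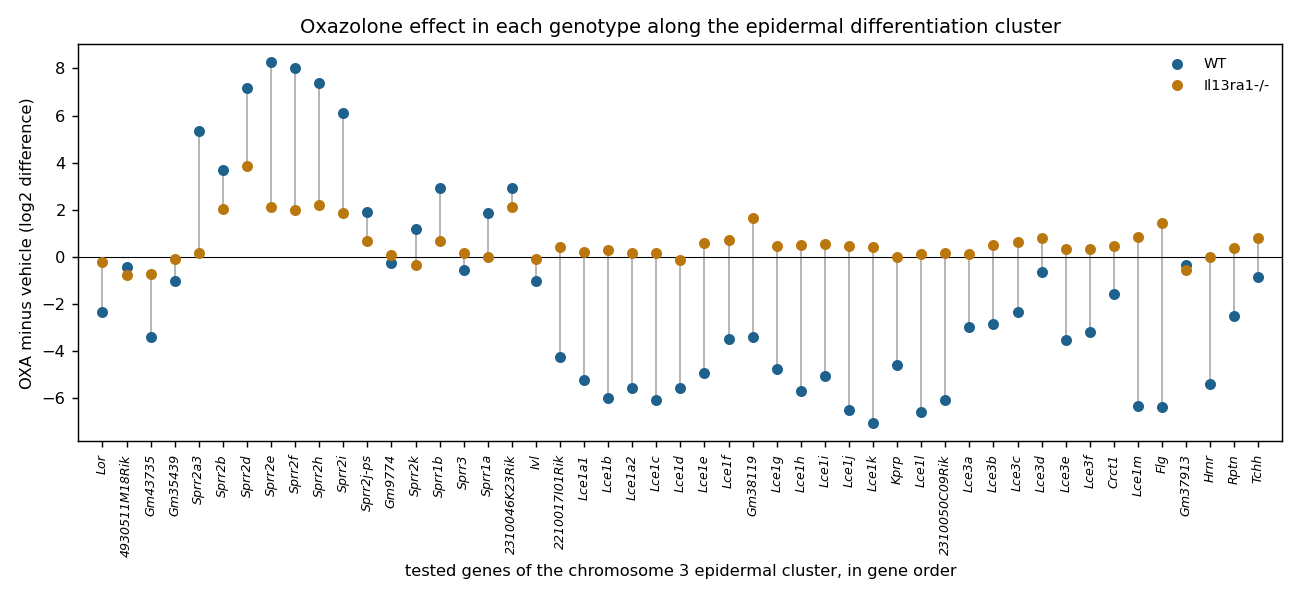
OXA minus vehicle (vertical axis, log2 difference) in WT and in Il13ra1-/- for the 49 tested genes of the cluster, in gene order along the chromosome (horizontal axis, not to scale), with a line joining both values of a gene, whose length is the size of the interaction. In the Sprr block the WT points lie above the KO points apart from Sprr3 and the unnamed gene Gm9774, and in all 20 Lce genes they lie below them, by 1.41 in Lce3d to 7.48 in Lce1k.

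The 200 bases before the start of the 3 Sprr2 genes with the most negative values and of the 2 Lce genes with the most positive ones are shown, because neighbouring families of this cluster differed in the sign of the interaction. They are RefSeq promoters of GRCm38.p6, written 5' to 3' on each gene's own strand. The windows are chr3:92351943-92352142 for Sprr2e, chr3:92364987-92365186 for Sprr2f and chr3:92385485-92385684 for Sprr2h on the plus strand, and chr3:92807892-92808091 for Lce1k and chr3:93019062-93019261 for Lce1m on the minus strand. Capitals mark the letters TGANTCA (N for any base), the core of AP-1 binding sequences, on either strand, and TATAAA on the gene's own strand.
Sprr2e: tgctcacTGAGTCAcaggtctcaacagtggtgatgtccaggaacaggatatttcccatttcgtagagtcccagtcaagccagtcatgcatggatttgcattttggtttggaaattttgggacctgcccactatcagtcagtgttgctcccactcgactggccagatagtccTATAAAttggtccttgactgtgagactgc
Sprr2f: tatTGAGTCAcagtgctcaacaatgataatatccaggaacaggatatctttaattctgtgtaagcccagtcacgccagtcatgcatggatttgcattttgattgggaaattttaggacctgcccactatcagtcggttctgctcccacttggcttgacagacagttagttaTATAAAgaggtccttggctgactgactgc
Sprr2h: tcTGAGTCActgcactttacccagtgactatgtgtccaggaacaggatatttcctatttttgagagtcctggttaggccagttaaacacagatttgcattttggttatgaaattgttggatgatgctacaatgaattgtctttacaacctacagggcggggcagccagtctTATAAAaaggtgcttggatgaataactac
Lce1k: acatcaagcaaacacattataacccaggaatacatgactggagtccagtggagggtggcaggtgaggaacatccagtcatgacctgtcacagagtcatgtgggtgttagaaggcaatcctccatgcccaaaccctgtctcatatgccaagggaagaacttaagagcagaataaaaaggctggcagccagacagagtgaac
Lce1m: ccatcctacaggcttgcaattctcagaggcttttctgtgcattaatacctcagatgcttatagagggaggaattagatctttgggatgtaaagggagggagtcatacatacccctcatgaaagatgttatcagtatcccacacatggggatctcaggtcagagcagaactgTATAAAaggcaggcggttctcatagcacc
Within 250 bases before the start, TGANTCA was found in 9 of 11 Sprr genes (81.8%) and in 0 of 19 Lce genes with a promoter in the table, beside 7.82% of all 27025 RefSeq promoters and 6.23% of those of tested genes. The first base of the match lay at -193 in Sprr2e, -197 in Sprr2f and -198 in Sprr2h, counted back from the start. The Sprr genes without TGANTCA were Sprr2a3, which was called lower (-5.16), and Sprr3, which was not called. Sprr2b held TGANTCA and was not called. TATAAA was found in 10 of the Sprr genes (90.9%), at -29 in Sprr2e, Sprr2f and Sprr2h, and in 2 of the Lce genes (10.5%), Lce1m and Lce1d, beside 8.94% of all promoters. The Sprr gene without it was Sprr2a3. Other Lce windows held AATAAA or GATAAA near the same place, Lce1k as printed above among them, so this contrast is one of exact letters. The motifs were chosen after the data were seen, family members share sequence by descent and so are not independent, and a match of letters is no evidence of binding. Over all called genes TGANTCA showed no such contrast: it was in 6.03% of lower and 8.31% of higher genes. The letters TTCNNNNGAA, the spacing that STAT6 dimers prefer, were present in the 300 bases around the start of 6.34% of lower, 7.09% of higher and 6.81% of all tested genes.

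The other barrier families followed the Lce pattern in part. Slurp2, a secreted Ly6-type protein of squamous epithelium, was 731, 822, 401 and 626 in WT vehicle, 5.81, 0.51, 4.71 and 0 under OXA, 572, 813, 761 and 985 in KO vehicle and 1361, 593, 1310 and 625 under OXA. Only WT OXA was low, and its interaction of 8.05 ± 0.67 (adjusted p = 9.99e-08) was the most positive of the named genes. Its relative Slurp1 was called higher as well (6.50), and of 15 tested Ly6 and Slurp genes 7 were called higher and 1 lower. Serpinb13, a protease inhibitor of differentiated keratinocytes, was 55.7 to 128 in WT vehicle, 1.09, 0, 0 and 0 under OXA, 113 to 135 in KO vehicle and 109 to 172 under OXA, with an interaction of 6.21. Of 12 tested clade B serpins 8 were called higher and none lower, Serpinb7 among them (4.41). Kallikreins, the proteases that shed cornified cells, and their inhibitors had 7 of 16 called higher, including Klk5 (6.41), and 1 called lower. Barrier lipid genes had 10 of 23 called higher, such as the lipoxygenases Alox12b (1.40) and Aloxe3 (1.50), and 2 lower. Other genes among the most positive were Tmem45a2 (7.88), Dapl1 (7.32) and Skint6 (6.34). Desmosome and tight junction genes were split, with 9 of 30 higher and 3 lower and a median of -0.04, or 7 higher and 11 lower under equal library totals.

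Enzymes that detoxify aldehydes and foreign compounds formed another large group in which the fall in WT was missing from KO. Of 33 tested genes 20 were called higher and 2 lower, with median OXA effects of -2.07 in WT and 0.09 in KO. Aldh3a1, an aldehyde dehydrogenase of surface epithelia, was 39780, 37956, 35183 and 34481 in WT vehicle, 411, 271, 218 and 361 under OXA, 31836, 33402, 35839 and 32736 in KO vehicle and 15974, 11544, 31779 and 22171 under OXA. All KO OXA libraries lay below all vehicle libraries, the third by little, but the KO effect of -0.82 did not pass (adjusted p = 0.107), and the interaction was 6.09 ± 0.35 (adjusted p = 1.02e-09). Cyp2f2, a cytochrome P450, was 35726 to 54185 in WT vehicle, 589 to 1032 under OXA, 25431 to 33988 in KO vehicle and 17136 to 32806 under OXA, an interaction of 5.27. WT OXA lay far below all others, and every WT vehicle library lay above every KO library. Aldh1a7 (4.87), the glutathione transferase Gsta2 (3.91) and the quinone reductase Nqo1 (2.88) were called higher. Aldh1a3, which makes retinoic acid, was 1 of the 2 lower members (-4.30).

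**Figure D4:**
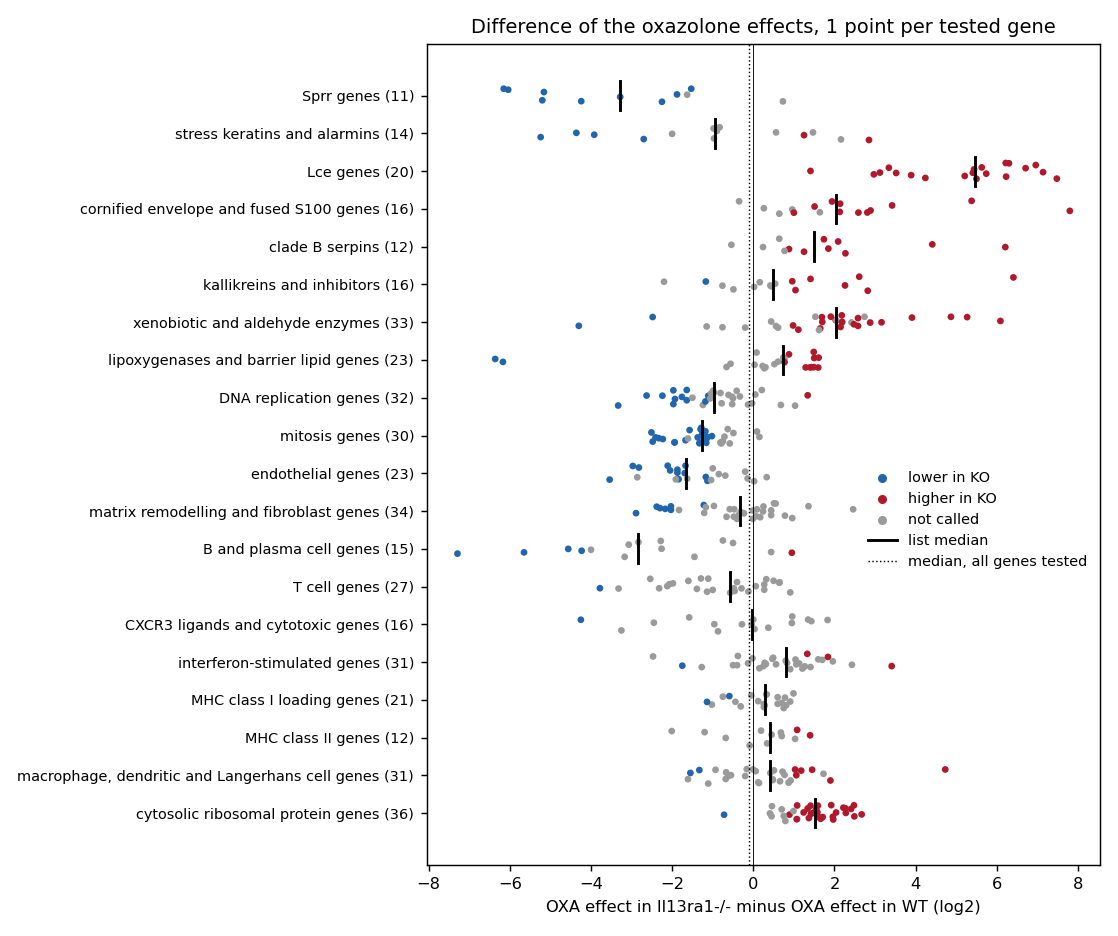
Interaction (horizontal axis, log2) of every tested gene of 20 lists, 1 point per gene, coloured by its call, with a black bar at the list's median, a dotted line at the median of all tested genes (-0.10) and the number of tested genes in brackets; points are spread vertically at random. Lce genes (20 of 20 called higher) and xenobiotic enzymes (20 of 33) lie mostly to the right, and Sprr genes (9 of 11 called lower), mitosis genes (20 of 30) and endothelial genes (12 of 23) to the left.

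Cell cycle genes rose in WT and mostly did not in KO. Rrm2, a subunit of the enzyme that makes deoxyribonucleotides, was 439, 354, 235 and 281 in WT vehicle, 3539, 3496, 4319 and 4438 under OXA, 453, 350, 352 and 294 in KO vehicle and 431, 650, 384 and 340 under OXA. WT OXA alone was high, and the interaction was -3.33 ± 0.29 (adjusted p = 2.25e-07). Mki67, the marker of cycling cells, was 602, 380, 571 and 294 in WT vehicle, 1013, 1094, 1583 and 2099 under OXA, 712, 800, 687 and 870 in KO vehicle and 209, 647, 644 and 769 under OXA. The KO OXA values overlapped both vehicle groups, and the interaction was -2.23 (adjusted p = 0.00261). Of 30 mitosis genes 20 were called lower and none higher, with median effects of 0.85 in WT and -0.31 in KO. Of 32 DNA replication genes 11 were called lower and 1 higher, with medians of 1.48 and 0.43, and 22 lower and none higher under equal library totals. In bulk tissue, fewer cells of a type and less RNA per cell cannot be told apart.

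About equal numbers of endothelial genes were called lower and not called, and most matrix genes were not called. Pecam1, an adhesion molecule of vessel walls, was 310, 340, 290 and 388 in WT vehicle, 949, 788, 739 and 552 under OXA, 366, 288, 313 and 236 in KO vehicle and 326, 161, 126 and 275 under OXA. KO OXA overlapped KO vehicle and reached below it, and the interaction was -1.69 (adjusted p = 0.00256). Of 23 endothelial genes 12 were called lower and none higher, with median effects of 0.97 in WT and -0.64 in KO. They included the lymphatic regulator Prox1 (-3.54), the vascular factors Sox18 (-2.97) and Sox17 (-2.82), the VEGF receptor Kdr (-1.87), von Willebrand factor Vwf (-1.87) and VE-cadherin Cdh5 (-1.84). Flt1, another VEGF receptor, was called lower (-1.17) and fell by 0.95 in KO. The summed value of the list was 4038 to 4671 in WT vehicle, 5498 to 9326 under OXA, 3224 to 4664 in KO vehicle and 2864 to 4149 under OXA. Tnc, a matrix protein of wounds, was 81.2, 78.8, 60.2 and 35.7 in WT vehicle, 334, 382, 243 and 379 under OXA, 177, 114, 107 and 82.1 in KO vehicle and 227, 152, 89.1 and 113 under OXA. Its KO groups overlapped (effect 0.24), and the interaction was -2.17 (adjusted p = 0.00205). Among 34 matrix remodelling and fibroblast genes 7 were called lower and none higher, including elastin Eln (-2.03), Thbs1 (-2.03), the crosslinking enzyme Lox (-2.38) and Fap (-2.30). The collagen gene Col1a1 did not pass (-0.85, adjusted p = 0.114).

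**Figure D5:**
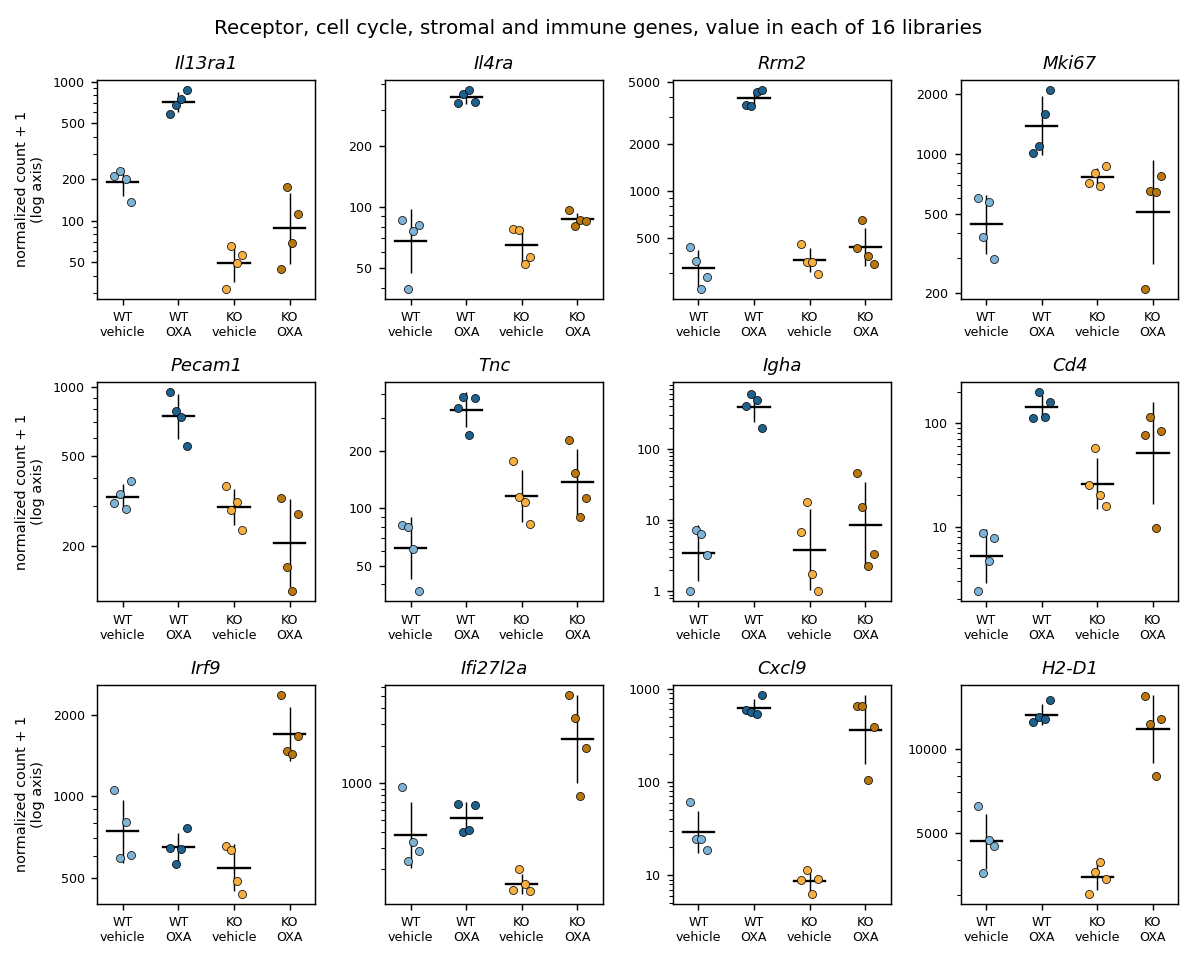
Normalized count + 1 (log axis) of 12 receptor, cell cycle, vessel, matrix, lymphocyte and interferon genes in each of the 16 libraries, with 1 point per library, a horizontal bar at the mean of the log values and a vertical line for 1 SD on the log scale, by group. In Rrm2 only the WT OXA libraries are high, in Cxcl9 the OXA libraries of both genotypes are high, and in Irf9 and Ifi27l2a only KO OXA is raised (effects 1.65 and 3.88 in KO).

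Lymphocyte genes varied strongly between libraries. Igha, the heavy chain of IgA, was 0, 6.18, 5.47 and 2.23 in WT vehicle, 397, 598, 494 and 199 under OXA, 5.85, 17.3, 0.76 and 0 in KO vehicle and 45.8, 14.3, 1.24 and 2.36 under OXA. WT OXA stood apart, and the interaction was -5.65 (adjusted p = 0.00608). Ighg2c was 1.38, 3.09, 1.82 and 22.3 in WT vehicle, 135, 118, 48.6 and 571 under OXA, 38, 2132, 53.3 and 27.9 in KO vehicle and 89.8, 29.8, 2.48 and 15 under OXA. The second KO vehicle library was the highest of all 16, and the interaction was -7.29 ± 1.64 (adjusted p = 0.0047) with it and -5.85 (adjusted p = 0.00557) without it. Of 15 B and plasma cell genes 4 were called lower, Jchain (-4.56) among them, and 1 higher, and Igkc was listed at 0 in every library. Summed over the list, values were 3428 to 4421 in WT vehicle, 5519 to 7113 under OXA, 3297 to 12461 in KO vehicle and 3480 to 10707 under OXA. Cd4 was 1.38, 7.73, 3.65 and 6.69 in WT vehicle, 111, 197, 113 and 159 under OXA, 24.4, 56.1, 19 and 14.8 in KO vehicle and 75.2, 114, 8.66 and 81.9 under OXA. KO vehicle lay above WT vehicle and KO OXA overlapped both KO vehicle and WT OXA, with an interaction of -3.78 (adjusted p = 0.00601). Cd4 was the only 1 of 27 T cell genes that passed, although 19 rose in WT and 2 in KO, and Cd3e did not pass (-2.12, adjusted p = 0.28).

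Little can be read about eosinophils from their defining granule genes. Epx and Prg3 were listed at 0 in all 16 libraries, as were Itgam and Igkc, while other macrophage and plasma cell genes were counted, so a 0 in every library does not show that a gene was absent. Prg2, Siglecf, Ccr3, Il5ra and Ear1 did not reach the expression minimum, so 5 of 12 eosinophil genes were tested. The 2 called lower were Alox15, which epithelium also expresses, and Ear2 (-2.33, adjusted p = 0.0405), whose call was lost without the expression minimum (adjusted p = 0.0902) and in most fits that left out a library (adjusted p up to 0.0978). Rnase2a (-2.80, adjusted p = 0.0547) and Cd300lf (-2.27, adjusted p = 0.105) rose in WT, did not pass in KO and did not pass for the interaction. Of the type 2 cytokines, Il4 and Il13 were below the expression minimum, and none of the 7 tested genes of the list, including Il33 (-0.49, adjusted p = 0.269) and Tslp (-0.66, adjusted p = 0.459), passed for the interaction. Cd207, langerin of Langerhans cells, was 5.51, 9.27, 3.65 and 31.2 in WT vehicle, 0 in all WT OXA libraries, 1.95, 5.18, 2.28 and 8.21 in KO vehicle and 18.3, 26.2, 6.19 and 6.3 in KO OXA. With 26 reads in WT vehicle against a floor of 3 reads over the group, WT OXA was at least 26.4-fold lower relative to library totals, and the fitted interaction was 4.73 (adjusted p = 0.00279). Ccl20, which attracts Langerhans cell precursors, was called higher too (5.15).

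Many interferon-related and cytotoxic genes rose under OXA in both genotypes, though not every member of their lists. Cxcl9, a T cell attractant induced by interferon gamma, was 60.6, 23.2, 23.7 and 17.8 in WT vehicle, 590, 554, 528 and 861 under OXA, 7.8, 10.4, 5.33 and 8.21 in KO vehicle and 647, 655, 105 and 390 under OXA. It rose by 4.43 in WT and by 5.38 in KO, and the interaction of 0.95 (95% interval -0.40 to 2.31, adjusted p = 0.335) did not pass, though without the third KO OXA library it was 1.55 (adjusted p = 0.0388). H2-D1, a class I histocompatibility chain, was 3590 to 6239 in WT vehicle, 12494 to 15114 under OXA, 3019 to 3923 in KO vehicle and 8001 to 15585 under OXA, and it rose by 1.51 and 1.77. The 95% interval of its interaction, -0.32 to 0.83, left room for less than 1 log2 unit in either direction. Mpeg1, the perforin of macrophages, rose by 2.39 and 2.43, with an interval from -0.87 to 0.97. Gzma rose by 4.10 in both genotypes, Gzmb by 4.43 and 6.26, Ifi44 by 3.49 and 3.74 and B2m by 2.34 and 3.32. Of the 318 genes whose OXA effect passed in KO, 32 had an interval of the interaction within 1 log2 unit of 0, and the named ones beside Mpeg1 and H2-D1 were Ly86, H2-T23, Adgre1, Psme2, Ncf1 and Rassf4.

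By list, 27 of 31 interferon-stimulated genes rose in WT and 23 in KO, 10 of 10 interferon-induced GTPases rose in both, 19 and 18 of 21 class I loading genes rose, and 10 and 8 of 12 class II genes rose. For the interaction, 1 of the interferon-stimulated genes was called lower and 3 higher, none and 1 of the GTPases, 2 and none of the class I genes, and none and 2 of the class II genes. Equal library totals turned the class II counts to 2 lower and none higher and the interferon-stimulated counts to 4 lower and 2 higher, so no direction is given for these lists. Among 16 CXCR3 ligands and cytotoxic genes 15 rose in WT and 10 in KO, and 1, the receptor Cxcr3 (fitted value -4.25, with no read in WT vehicle), was called lower, a call that quantile normalization ended (-2.93, adjusted p = 0.108). The peptide transporter Tap2 (-1.14) was among the class I genes called lower.

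Of the 318 genes whose OXA effect passed in KO, the interaction was called lower in 20, Krt6a and Sprr2d among them, and higher in 59. Over all tested genes 7.67% were called lower and 10.1% higher. In 57 of the 59 KO was below WT under vehicle and above it under OXA, with median differences of -0.54 and 0.94. The KO effect and the interaction, by which the 59 were selected, both contain KO OXA minus KO vehicle. Selection thus favours a low KO vehicle and a high KO OXA level, and these medians are a description. Of the 59, 6 were on the interferon, GTPase or histocompatibility lists and 5 on the macrophage list. Among all 303 genes that rose in KO were 23 interferon-stimulated genes, 10 GTPases, 18 class I and 8 class II genes. The macrophage list had 16 that rose in KO. Most members of these lists that rose in KO were thus not among the 59. Irf9, a transcription factor of the interferon response, was 1052, 589, 803 and 608 in WT vehicle, 645, 560, 637 and 760 under OXA, 653, 632, 485 and 435 in KO vehicle and 2384, 1472, 1438 and 1668 under OXA. Only KO OXA was raised, and the interaction was 1.84 (adjusted p = 0.000207). Ifi27l2a, an interferon-stimulated gene, was 929, 233, 334 and 281 in WT vehicle, 673, 398, 415 and 668 under OXA, 135, 200, 151 and 133 in KO vehicle and 5176, 3358, 781 and 1906 under OXA. KO vehicle was the lowest and KO OXA overlapped only the first WT vehicle library, an interaction of 3.41 (adjusted p = 0.00102). Ccl12, a monocyte attractant, was 4.46 to 21.6 in WT vehicle, 17.4 to 24.6 under OXA, 1.73 to 8.37 in KO vehicle and 73.3 to 169 under OXA, an interaction of 3.76 (adjusted p = 0.00145). C1qb, a complement chain made by macrophages, was 1043 to 1797, 1629 to 2033, 601 to 1007 and 2214 to 5774 in the same order, an interaction of 1.45 (adjusted p = 0.00642). Under equal library totals 34 of the 59 kept their call, and 33, these 4 genes included, kept it under every alternative. Gbp2 (1.56), an interferon-induced GTPase, lost its call under equal library totals (1.12, adjusted p = 0.0715), without the trend (adjusted p = 0.0593) and without the first KO OXA library (1.31, adjusted p = 0.0518). The class II chains H2-Aa (1.40) and H2-Eb1 (1.08) lost theirs under quantile normalization (0.58, adjusted p = 0.341, and 0.34, adjusted p = 0.466) and under equal library totals, among other settings. Macrophage-list genes were summed at 8576 to 9805 in WT vehicle, 12464 to 14248 under OXA, 5566 to 7733 in KO vehicle and 11059 to 27583 under OXA, and their part in these values was not tested.

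In 10 genes the OXA effect passed in both genotypes with opposite signs, and all 10 were called higher. Ly6d, a surface marker of squamous cells, was 13346, 18636, 17895 and 17004 in WT vehicle, 6290, 6975, 6155 and 10010 under OXA, 13065, 11428, 10278 and 17212 in KO vehicle and 39424, 25160, 30139 and 15400 under OXA. It fell by 1.20 in WT and rose by 1.03 in KO, with overlap between the KO groups at the fourth OXA library (interaction 2.23). Rbp7, a retinol-binding protein, was 14.6 to 31.2 in WT vehicle, 5.13 to 7.45 under OXA, 4.92 to 25.3 in KO vehicle and 23.6 to 56.8 under OXA, falling by 1.51 in WT and rising by 1.90 in KO (interaction 3.41), with 1 KO OXA library inside the KO vehicle range. Fgfbp1 (2.28) and Nop10 (2.26) were the next in size. Apart from these, 27 of 36 cytosolic ribosomal protein genes were called higher and 1 lower, or 24 higher under equal library totals. Of this list 27 fell in WT and none passed in KO in either direction, with median effects of -1.03 in WT and 0.55 in KO. Rpl19, of the large ribosomal subunit, was 10046 to 12718 in WT vehicle, 2702 to 3625 under OXA, 7732 to 10383 in KO vehicle and 7431 to 20168 under OXA. WT OXA lay below all others and the interaction was 2.41.

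Under vehicle alone 10 genes differed between KO and WT (0.0597%), so few interactions began from a called difference in the untreated tissue. Besides Il13ra1 (-1.93, adjusted p = 0.0267), Acsm3, an acyl-CoA synthetase, averaged 149 in WT vehicle, 4.27 under OXA, 10.8 in KO vehicle and 19.1 under OXA, and its interaction of 5.15 (adjusted p = 0.00179) came with a vehicle difference of -4.01. The heat shock gene Hspa1a averaged 1307, 485, 435 and 581 in that order (vehicle difference -1.57, interaction 1.75), and Cyp2ab1 averaged 0.8, 21, 20.2 and 22.8 (3.70 and -3.66). In these 3 genes KO vehicle was nearer to WT OXA than to WT vehicle.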

How the data were processed

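Per the submitters' processing notes, the authors used FastQC 0.11.5, Trim Galore, cutadapt 1.10, TopHat2 2.1.0, Bowtie2 2.2.6, HTSeq 0.6.1 and DESeq2 1.28.0 with GRCm38. Which annotation release was used, and whether molecular identifiers were collapsed, is not given in the sources used here. Normalized counts (a signal at or above 0) were deposited. In these deposited values, each library's reads per gene are divided by its own size factor. Of the non-zero values that were checked, which left out the highest ones, 100% were whole multiples of 1 read's worth (tolerance 0.1). The highest values were rounded to whole reads without that check, and the reads so recovered gave the depth. Of 41411 genes, 14402 were at 0 in all libraries, Il2rg among them.

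The test was limma 3.58.1 (R 4.3.3) on log2(value + 1), with 4 group means over 16 libraries, eBayes with a trend, two-sided, Benjamini-Hochberg adjustment over 16748 genes and a threshold of 0.05. Fold changes on this scale understate low genes. With whole reads as input, edgeR 4.0.16 (TMM scaling, quasi-likelihood test) called 1166 genes lower and 1771 higher, and DESeq2 1.42.0 called 1456 and 2157. Other alternatives were pseudocounts of 0.5 and 5, no minimum and a minimum of 20, equal totals, quantile normalization, no trend, a robust fit, array weights, thinned reads and each library left out in turn. The scripts were tested on simulated data.

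The gene lists and the naming rule were written with earlier results of these data known. The rule took the 12 most negative and 12 most positive called genes with a group mean of at least 10, up to 3 genes per list by p, 8 genes that rose in both genotypes, 4 with opposite signs and a fixed set of receptor and marker genes. Other list members, the genes given library by library and the motifs TGANTCA and TATAAA were chosen after their values were seen. Library values in the text are in replicate order, which carries no meaning. No gene sequence was read from the libraries; promoters came from a RefSeq table of GRCm38.p6.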

Additional observations from a re-analysis of the deposited data

Results flagged for a closer look

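The difference between the genotypes' oxazolone effects, tested as the interaction, passed in 1284 genes with a lower and 1698 with a higher effect in KO. Among the genes given library by library, the lower ones were Chil4 (-5.95), Alox15 (-6.36), Il19 (-5.56), Gsdmc2 (-5.71), Mrgprg (-5.81), Sprr2f (-6.04), Sprr1a (-1.88), Krt6a (-4.36), Krt14 (-1.41), Elf3 (-2.39), Il4ra (-1.93), Socs1 (-1.75), Rrm2 (-3.33), Mki67 (-2.23), Pecam1 (-1.69), Tnc (-2.17), Igha (-5.65), Ighg2c (-7.29) and Cd4 (-3.78). The higher ones were Slurp2 (8.05), Flg (7.80), Lce1k (7.48), Serpinb13 (6.21), Aldh3a1 (6.09), Cyp2f2 (5.27), Krt15 (2.73), Il1r2 (4.24), Cd207 (4.73), Ccl12 (3.76), C1qb (1.45), Irf9 (1.84), Ifi27l2a (3.41), Stat6 (0.88), Rpl19 (2.41), Ly6d (2.23) and Rbp7 (3.41), all in log2 units.

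Single libraries lay far from the other 3 of their group, by Dixon's gap ratio, in 18 of 159 groups (11.3%) over all 41 genes given library by library, including those whose interaction did not pass, where chance gives about 1 in 20. In WT vehicle these were replicate 1 for Ifi27l2a (929) and Cxcl9 (60.6), replicate 2 for Cyp2f2 (54185), replicate 3 for Il19 (5.47) and replicate 4 for Il13ra2 (2.23) and Ighg2c (22.3). In WT OXA they were replicate 1 for Serpinb13 (1.09) and Krt15 (2295), replicate 2 for Socs1 (658) and replicate 4 for Sprr1a (30885) and Ighg2c (571). In KO vehicle they were replicate 1 for Krt6a (2428), replicate 2 for Alox15 (43.1) and Ighg2c (2132) and replicate 4 for Il1r2 (1224). In KO OXA they were replicate 1 for Krt14 (5701), replicate 3 for Mrgprg (2.48) and replicate 4 for Il13ra2 (6.3).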

How the results depend on the processing

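The scaling between libraries was the choice that moved the counts most. Equal library totals, which shifted the median interaction by -0.42 (to -0.53), gave 3459 genes lower and 883 higher, and DESeq2 shifted the median by 0.11. Under every other alternative both counts stayed within 1.5 times the reported ones, and no called gene was called in the opposite direction under any of them. Leaving out 1 library at a time gave 877 to 1543 lower and 1353 to 1922 higher genes, lowest without the third WT OXA library and highest without the fourth KO OXA library. Among the named genes' called effects, the fall of mt-Nd3 in WT was the only one to change sign, at 0.01 under quantile normalization (adjusted p = 0.979), and the cause was not tested. Thinning to the shallowest library gave 1103 and 1556. The low genes Il19, Mrgprg, Alox12e and Sprr2e were called by limma and by neither edgeR nor DESeq2, and the cause was not tested. No paired analysis was possible because the titles carry only codes of a letter and a digit, whose digits repeat within WT OXA and so define no block, and nothing in the labels says that a digit links libraries.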

Other observations

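Smaller groups of genes, named after their values were seen, showed interactions in both directions. Over all 16748 tested genes 7.67% were called lower and 10.1% higher, or 3459 and 883 genes under equal library totals. Of 16 heat shock chaperones 6 were called higher, including Dnajb1 (1.48) and Hspe1 (1.44), and 1, the endoplasmic reticulum chaperone Hsp90b1, was called lower (-1.05); under equal library totals the counts were 3 and 3. Sterol and fatty acid synthesis genes had 6 of 25 called higher and none lower, among them Msmo1 (1.63), Insig1 (1.57), Elovl6 (1.43) and Lss (1.41), or 4 higher and 3 lower under equal library totals. Inflammasome and gasdermin genes were split: the adaptor Pycard (1.79), Casp1 (2.17) and Gsdma (1.87) were called higher, and the DNA sensor Aim2 (-1.93) and Gsdmc (-1.26) lower. Of 14 EGF family genes 1 was called in each direction, the receptor ligands Ereg (1.78) and Hbegf (-1.27), or 1 higher and 3 lower under equal library totals. Of 21 epithelial transcription factors 3 were called higher, Foxe1 (2.28), Grhl3 (1.09) and Klf5 (0.85), and 1, Elf3, lower, or 2 higher and 6 lower under equal library totals. The counts of the EGF family and of these factors were near the shares of all tested genes. They are therefore not read as a result about either family. The transporter Slc46a2 averaged 697 in WT vehicle, 30.8 under OXA, 631 in KO vehicle and 559 under OXA, an interaction of 4.25 (limma, adjusted p = 1.52e-08).

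Of 26 skeletal muscle genes 5 were called higher, Myh4 (2.06), Tnni2 (1.44), Pvalb (1.56), Mybpc2 (0.98) and Myl1 (0.80), and 1, Tnnt1, lower (-2.32), with a list median of -0.26, or 2 higher and 3 lower under equal library totals. Airway and club cell genes had 3 of 13 tested with 1 called higher, and of 8 tested thyroid and stomach genes none was called.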
